A study of Mus musculus with 6 samples.

Results

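The genes of the mitochondrial ribosomal proteins were the 78 protein-coding genes whose symbols begin with Mrpl (49 genes) or Mrps (29 genes) followed by a number, out of 17924 genes listed and 14362 protein-coding ones. They were followed by RNA-seq in dermal fibroblasts of newborn (P0) mice that had spent 14 days in medium for adipocyte differentiation. The 3 CTL libraries came from Pdgfra-Cre+ mice with at most 1 floxed Nelfb allele (fl/wt or wt/wt, and the labels do not say which library had which), and the 3 Nelfb-/- libraries, labelled KO, from Pdgfra-Cre+ mice with both alleles floxed (fl/fl). Nelfb is a subunit of the negative elongation factor, which holds RNA polymerase II paused just downstream of promoters. All groups carried the Cre, which is driven by Pdgfra and so deletes in cells of that lineage, and the cultures were not sorted. They are given as biological triplicates.

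Mitochondria keep their own ribosome, which translates the few mRNAs of the mitochondrial genome, all of them for subunits of the respiratory chain and ATP synthase. Its 2 rRNAs, mt-Rnr1 of the small subunit and mt-Rnr2 of the large one, are transcribed in the organelle, while all of its proteins are encoded in the nucleus, made in the cytosol and imported. Some of these proteins descend from bacterial ribosomal proteins, and the others are additions found in mitochondria. Mitochondria are known to multiply as preadipocytes become lipid-filled adipocytes.

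Nelfb itself, which checks the labels, stood at 17.3, 19.7 and 22.3 CPM (reads of the gene per 1000000 reads of its library) in CTL and at 5.50, 3.90 and 5.55 CPM in Nelfb-/- cells. It was lower by 1.99 ± 0.22 on the log2 scale (± SE, adjusted p = 0.0050). Each library held between 17.1 M and 29.3 M reads on the listed genes (M, 1000000 reads). CPM gives a gene's share of its library, so a fold change is a change of share, and in these bulk cultures fewer cells of a type and less RNA per cell cannot be told apart. Fold changes were fitted by limma on log2 values with a pseudocount of 1 read, for the 16251 genes that averaged 10 reads or more, and p-values were adjusted over all of them. "Called" below means an adjusted p of at most 0.05. All 78 members passed the read filter.

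Before the members, 2 libraries need naming, since they stood apart from the others of their group. On the second principal component over all genes tested (27.7% of the variance), CTL replicate 3 lay at -74.9 and the other CTL libraries at 21.9 and 17.97, while Nelfb-/- replicate 1 lay at 79.2 and the other 2 of its group at -29.6 and -14.5. CTL replicate 3 had the highest value of the 3 CTL libraries for 65 of 78 members, and Nelfb-/- replicate 1 the lowest of its group for 61. The summed CPM of 5 proliferation markers split the libraries along the same line. It was 72.7, 68.6 and 304 in CTL replicates 1, 2 and 3, and 76.0, 359 and 311 in the Nelfb-/- ones. None of the 5 was called, and their part in the results was not tested. The 8 adipocyte markers summed to 17460 to 26610 CPM in CTL and to 9261 to 18630 CPM in Nelfb-/- cells, with 0 called lower and 1 called higher. Markers of other cells were higher in Nelfb-/- cells. Those of macrophages summed to 1235 to 4302 CPM against 124 to 484 CPM, with 5 of 6 called. Those of melanocytes (27.9 to 67.2 against 1.22 to 1.43 CPM), muscle (41.7 to 67.2 against 6.77 to 9.15 CPM) and Schwann cells (2 genes, 76.0 to 98.1 against 15.7 to 17.9 CPM) had all of their genes in the table called higher. Of the markers of brown adipocytes, 2 summed to 10.1 to 17.99 CPM in CTL and to 0.175 to 0.286 CPM in Nelfb-/- cells, both called lower. Of fibroblast or preadipocyte markers 2 of 7 were called and of keratinocyte ones 1 of 3, all higher, where 9.96% of all genes were called higher. Of endothelial ones, 0 of 2 were called. The fibroblast sums overlapped, at 4406 to 14950 CPM in Nelfb-/- cells against 1953 to 8731 CPM in CTL. Those of keratinocytes (3.18 to 12.2 against 1.77 to 2.28 CPM) and endothelium (4.25 to 9.67 against 1.26 to 3.47 CPM) were low and did not overlap. Ucp1, a defining marker of brown adipocytes, was not among the genes analysed here.

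As a group, the mitochondrial ribosomal protein genes lay lower in Nelfb-/- cells, by a small amount. Of the 78 members, 67 (85.9%) had a fold change below 0 on the log2 scale, against 45.4% of all genes tested, and the median log2 fold change was -0.25 against 0.068 for all genes. The members spread from -1.26 to 0.42, and 28 of them lay within 0.2 of no change. The test called 12 members, all lower (15.4%), where 5.83% of all genes were called lower. Among all genes with transcripts under 1000 bases that share was 13.2%, and 3 of the 25 members of that length were called. No member was called higher, where 9.96% of all genes were. Only Mrps28 was both called and at least 2-fold lower, which are the limits the study used, with a different test. Of all genes, 3.64% met these limits here. In a fit without moderation of the variances, 0 members met both. Without CTL replicate 3 and Nelfb-/- replicate 1, Mrps28 was at -0.89 and still called, and the only member past both limits was Mrpl23 (-1.07, adjusted p = 0.034), whose reads may have been split with a pseudogene. All 3 Nelfb-/- libraries lay below all 3 CTL libraries for 31 members (39.7%, against 16.1% of all genes), and above them for 0 (against 22% of all genes). Under 4 other scalings of the libraries, 68 to 70 members were lower and 12 to 17 called, all of them lower. Quantile normalization moved the median of all genes from 0.068 to -0.068 and the share of all genes called lower to 8.17%, and relative to that median the members' median was -0.29, against -0.31 with CPM.

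**Figure D1:**
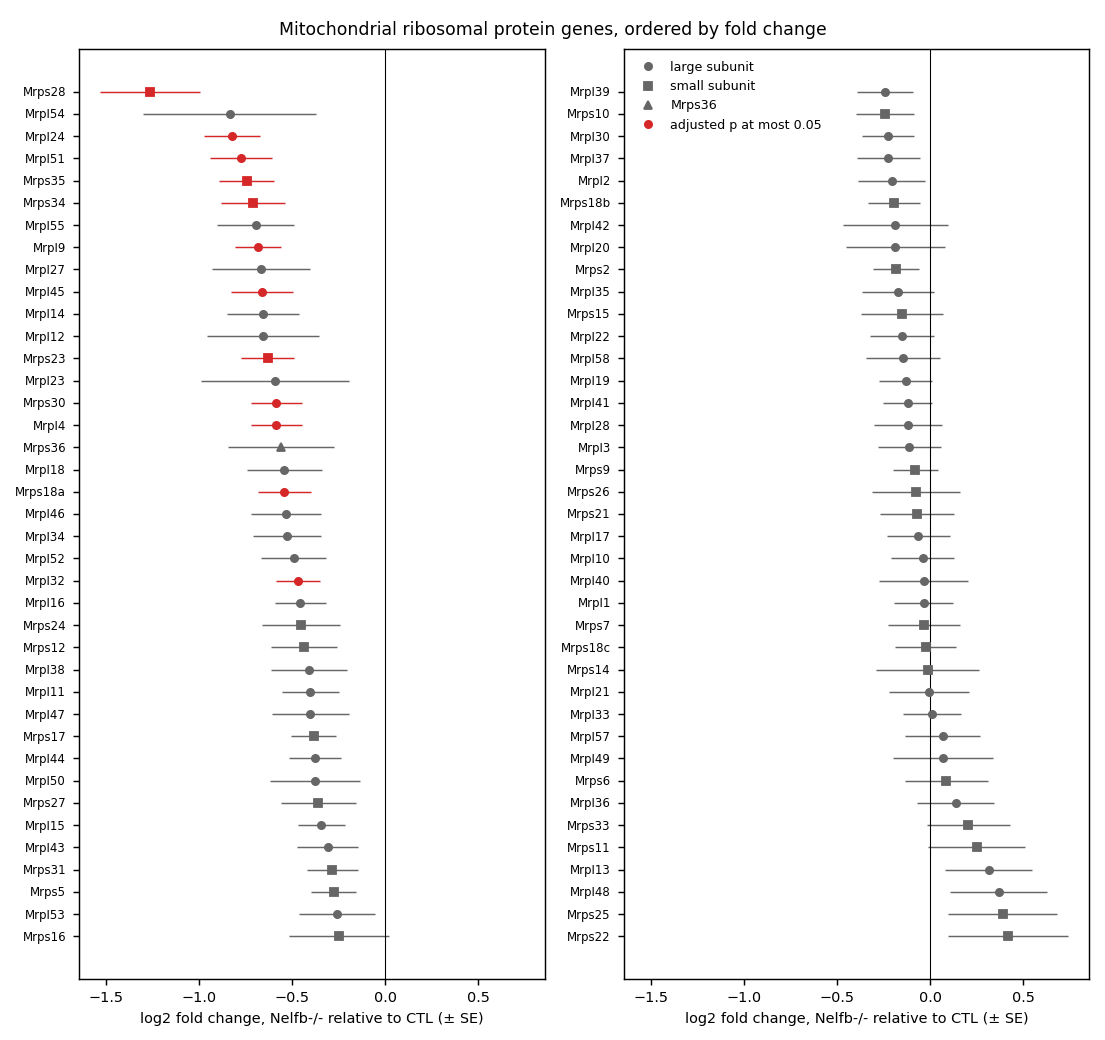
The log2 fold change of each member in Nelfb-/- relative to CTL cells (x axis, points, with bars for the SE, 3 libraries a group) for the 78 members ordered from the lowest, left panel first. Circles are proteins of the large subunit, squares of the small subunit and the triangle Mrps36. The 12 called members, in red, all lie to the left of 0, and the order runs from Mrps28 at -1.26 to Mrps22 at 0.42.

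Both the size of this shift and the number of calls depended on single libraries. Leaving out CTL replicate 3 left 55 members lower and 12 called, and leaving out Nelfb-/- replicate 1 left 56 lower and 9 called. All called members were lower, and the share of all genes called lower rose from 5.83% to 7.92% and 7.56% in these fits. With CTL replicate 1, CTL replicate 2 or Nelfb-/- replicate 3 left out, 69, 68 and 68 members were lower. In these fits 0 members were called by limma, with 15, 18 and 17 at an unadjusted p under 0.05. As shares of the members, these counts were no higher than the shares of all genes at that p in the same fits. Called lower were 1.63%, 1.46% and 0.852% of all genes. Without Nelfb-/- replicate 2, 1 was called and 72 were lower. Calls over all genes fell as well in these 4 fits, from 2566 to between 434 and 1030. When both libraries that stood apart were left out together, a choice made after seeing the data, 48 of 78 members were lower (19 changed from lower to higher), 23 were called lower (29.5%, against 24.7% of all genes) and 10 were called higher (12.8%, against 33.1% of all genes). That fit compares 2 libraries with 2 that were kept for their likeness, so its p-values are too small. The proliferation markers summed to 72.7 and 68.6 CPM in its CTL libraries and to 359 and 311 CPM in its Nelfb-/- ones. In that fit, genotype and this difference cannot be told apart. The 12 members called with all libraries were also called lower in that fit, which reuses the same libraries. The wider lean of the group was smaller in it, with a median of -0.11.

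Mrps28, a small-subunit protein, had the lowest fold change. It stood at 13.4, 11.1 and 18.4 CPM in CTL replicates 1 to 3 and at 4.50, 6.11 and 7.06 CPM in Nelfb-/- replicates 1 to 3. The groups did not overlap, and on the log2 scale the fold change was -1.26 ± 0.27 (adjusted p = 0.027). Its gene spans chromosome 3, bases 8802146 to 8923918, on the minus strand of GRCm38, the build of the positions below.

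The next called members were 2 large-subunit and 2 small-subunit proteins. Mrpl24 (chromosome 3, bases 87919506 to 87923672), Mrpl51 (chromosome 6, 125191801 to 125196269), Mrps35 (chromosome 6, 147042764 to 147073991) and Mrps34 (chromosome 17, 24895116 to 24897502) all lie on the plus strand. Mrpl24, a large-subunit protein with a bacterial counterpart, had 51.4, 56.2 and 63.4 CPM in CTL libraries, against 34.3, 34.1 and 28.2 CPM in Nelfb-/- cells (-0.82 ± 0.15, adjusted p = 0.017). Mrpl51, a mitochondrial addition to the same subunit, had 54.8, 56.9 and 65.1 against 28.5, 39.8 and 35.8 CPM (-0.77 ± 0.17, adjusted p = 0.028). Neither gene's groups overlapped. Mrps35 and Mrps34, both additions of the small subunit, were also apart in all libraries. Mrps35 had 30.04, 28.4 and 31.4 against 16.6, 20.4 and 16.9 CPM (-0.74 ± 0.15, adjusted p = 0.021). Mrps34, a gene mutated in a form of Leigh syndrome, had 43.5, 47.5 and 47.8 against 22.8, 33.2 and 29.7 CPM (-0.71 ± 0.17, adjusted p = 0.038).

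Mrpl9 (chromosome 3, bases 94443318 to 94451130, plus strand) had the smallest SE of the 10 members with the lowest fold changes. This large-subunit protein stood at 53.9, 61.6 and 55.6 CPM in CTL libraries, against 34.99, 33.8 and 37.4 CPM in Nelfb-/- cells (-0.69 ± 0.12, adjusted p = 0.017), and its fold change hardly moved, to -0.70, without the 2 libraries that stood apart. Mrpl45, which lies where the large subunit contacts the inner membrane, had 36.4, 34.4 and 47.2 against 25.8, 25.8 and 22.4 CPM (-0.66 ± 0.17, adjusted p = 0.044). Mrps23, of the small subunit, had 36.1, 37.6 and 44.0 against 23.2, 26.1 and 26.4 CPM (-0.63 ± 0.14, adjusted p = 0.031). In all 3 genes the groups were apart, although CTL replicate 3 was the highest for Mrpl45 and Mrps23 and not for Mrpl9.

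Mrps30 and Mrps18a carry small-subunit names and sit in the large subunit of the assembled ribosome. Mrps30 had 62.0, 64.6 and 53.4 CPM in CTL libraries, against 39.1, 43.7 and 37.0 CPM in Nelfb-/- cells (-0.59 ± 0.14, adjusted p = 0.036), and here CTL replicate 3 was the lowest CTL library. Mrps18a, one of 3 paralogues of a bacterial small-subunit protein, had 34.5, 28.9 and 35.4 against 21.4, 24.2 and 21.95 CPM (-0.54 ± 0.14), at an adjusted p of 0.04998, just inside the threshold. The other 2 paralogues, Mrps18b and Mrps18c, which stay in the small subunit, had log2 fold changes of -0.20 ± 0.14 and -0.024 ± 0.16, and their groups overlapped. Whether the 3 differ from each other was not tested.

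Mrpl4, which lines the exit tunnel of the large subunit, had 41.9, 41.4 and 48.3 CPM in CTL libraries, against 26.5, 31.2 and 29.99 CPM in Nelfb-/- cells (-0.58 ± 0.14, adjusted p = 0.035). Mrpl32, whose maturation by the m-AAA protease is needed for ribosome assembly, had the tightest replicates of the 12. It stood at 33.3, 33.4 and 35.3 against 24.4, 24.7 and 24.5 CPM (-0.47 ± 0.12, adjusted p = 0.044), the smallest change among the called members. Summed over the 12, the level was 491, 502 and 545 CPM in CTL libraries, against 302, 343 and 317 CPM. The other 66 members summed to 1898, 1852 and 2253 CPM in CTL and to 1451, 2008 and 1792 CPM in Nelfb-/- cells, where the groups overlapped. The 12 were chosen by their own test, so their sum is a description.

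**Figure D2:**
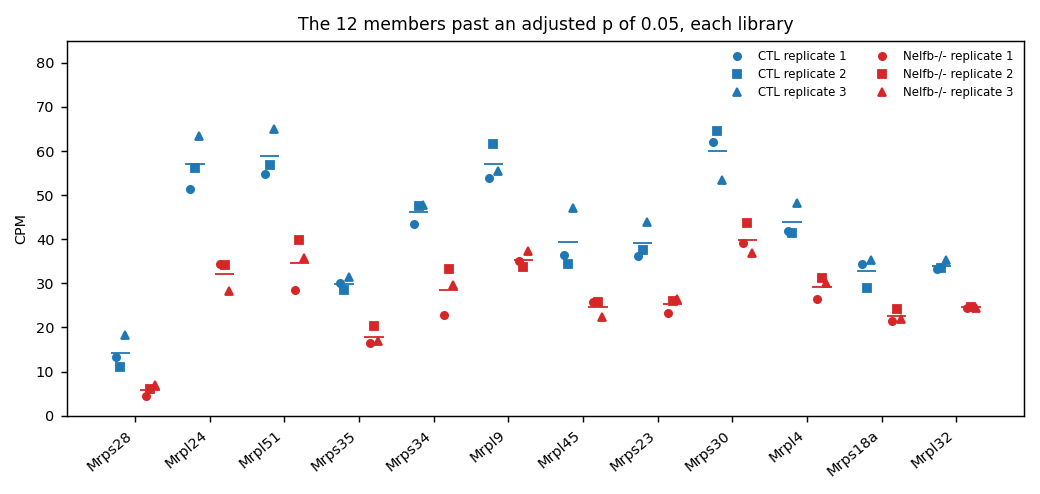
The CPM (y axis, from 0) of the 12 called members (x axis) in each library, CTL in blue and Nelfb-/- in red, with symbols for the replicate number and lines for the group means of 3 libraries. For each gene the red points lie below the blue ones, with the largest fold between the means in Mrps28 and the smallest in Mrpl32.

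Another 19 members had non-overlapping groups and were not called. Mrpl55 (18.4, 17.97 and 24.1 against 10.3, 14.7 and 12.2 CPM) and Mrpl14 (20.97, 18.2 and 24.04 against 11.1, 15.5 and 13.6 CPM) both had an adjusted p of 0.067. Mrpl27 followed at 17.03, 16.4 and 27.8 against 10.2, 14.97 and 12.7 CPM (-0.67 ± 0.26, adjusted p = 0.14). All 3 are large-subunit proteins related to bacterial ones.

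A low fold change could also rest on scattered libraries. Mrpl54 had the second lowest log2 fold change of all members, -0.84, with an SE of 0.47 (adjusted p = 0.27). Its values were 21.1, 21.6 and 49.2 CPM in CTL libraries, against 8.91, 22.2 and 19.8 CPM in Nelfb-/- cells, so that the difference lay in CTL replicate 3 and Nelfb-/- replicate 1, and without these libraries the log2 fold change was -0.026. Mrpl12, part of the stalk that recruits translation factors, had the highest mean CPM of the members and the same pattern. It stood at 76.5, 70.3 and 114.8 against 36.8, 71.9 and 59.6 CPM (-0.66 ± 0.30, adjusted p = 0.19), and at -0.16 without them.

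At the other end, no member was called higher with equal weight on all 6 libraries, while 8 of 78 were with array weights, which give the libraries that stood apart less weight and with which 34.7% of all genes were called higher. Mrps22, of the small subunit, had the highest log2 fold change, with 16.9, 16.9 and 27.9 CPM in CTL libraries, against 18.1, 37.1 and 28.3 CPM in Nelfb-/- cells (0.42 ± 0.32, adjusted p = 0.42). Mrps25 had 22.7, 18.04 and 34.7 against 23.7, 36.6 and 36.8 CPM (0.39 ± 0.29, adjusted p = 0.41), and Mrpl48 had 12.2, 12.4 and 21.1 against 15.9, 20.2 and 21.5 CPM (0.37 ± 0.26, adjusted p = 0.38). In these 3 genes CTL replicate 3 lay nearer to Nelfb-/- replicates 2 and 3, and Nelfb-/- replicate 1 nearer to CTL replicates 1 and 2. Mrpl13 (0.31) and Mrps11 (0.25) had the next highest log2 fold changes, also with overlapping groups. All 5 were among the 10 members called higher when CTL replicate 3 and Nelfb-/- replicate 1 were left out, Mrps22 at 0.94 and Mrps25 at 0.86.

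Members of both subunits and of both origins were mostly lower. Of 51 large-subunit members, 45 were lower and 8 called (median -0.31), and of 26 small-subunit members, 21 were lower and 4 called (median -0.19). Among large-subunit proteins, the 31 with a bacterial counterpart had a median of -0.34 with 5 called, and the 20 additions a median of -0.29 with 3 called. In the small subunit, the 17 with a bacterial counterpart had a median of -0.18 with 1 called, and the 9 additions a median of -0.28 with 3 called. As shares these were 16.1% and 15% in the large subunit and 5.88% and 33.3% in the small one, against 5.83% of all genes called lower, and the differences between these small classes were not tested. The remaining member, Mrps36, is now known as a subunit of the oxoglutarate dehydrogenase complex and not of the ribosome. It had 11.5, 10.6 and 18.8 CPM in CTL libraries, against 6.97, 10.3 and 9.88 CPM in Nelfb-/- cells (-0.56 ± 0.28, adjusted p = 0.22).

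Although the groups overlapped for many single genes, the sum over all 78 members was 2389, 2353 and 2799 CPM in CTL libraries, against 1753, 2351 and 2109 CPM in Nelfb-/- cells. The means were 2514 ± 248 and 2071 ± 301 CPM (SD, n = 3), the latter 17.6% lower, and Nelfb-/- replicate 2 lay just under the lowest CTL library. The ratio of summed Mrpl to summed Mrps CPM was 1.72, 1.77 and 1.86 in CTL and 1.68, 1.66 and 1.67 in Nelfb-/- cells.

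The rRNAs that these proteins assemble on were lower by much more. The small-subunit rRNA mt-Rnr1 stood at 1127, 1289 and 679 CPM in CTL libraries, against 302, 153 and 219 CPM in Nelfb-/- cells (-2.20 ± 0.34, adjusted p = 0.011). The large-subunit rRNA mt-Rnr2 stood at 2053, 2555 and 1054 against 428, 275 and 428 CPM (-2.26 ± 0.38, adjusted p = 0.014). Summed, the 2 rRNAs were 79.4% lower. In contrast to the proteins, CTL replicate 3 was the lowest CTL library for both rRNAs. Left without CTL replicate 3 and Nelfb-/- replicate 1, the fold changes were larger, -2.72 and -2.74. How the library kit treats rRNA bears on the level of both genes, and its part was not tested. All 15 mitochondrial genes listed were lower, of which mt-Rnr1, mt-Rnr2, mt-Nd5, mt-Nd6 and mt-Co3 were called (33.3%, where 5.83% of all genes were called lower).

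**Figure D3:**
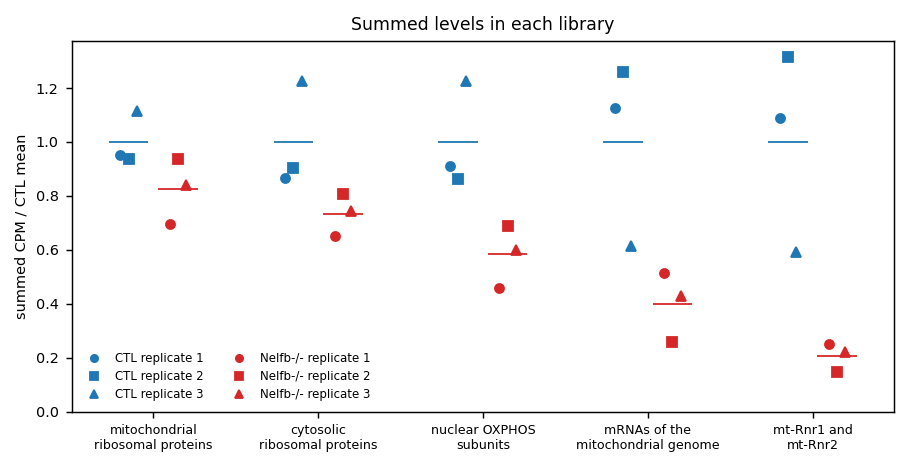
Summed CPM of 5 gene groups in each library, divided by the CTL mean of that group (y axis, from 0), with CTL in blue, Nelfb-/- in red, symbols for the replicate number and lines for group means of 3 libraries. The mitochondrial ribosomal proteins were 17.6% lower and the 2 mitochondrial rRNAs 79.4% lower in Nelfb-/- cells, and CTL replicate 3 (triangle) is the highest CTL library for the nuclear groups and the lowest for the mitochondrial ones.

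In each list of the other genes for mitochondrial translation, most genes were lower, and all but the translation factors held some that were higher. Called lower were 20% of the ribosomal proteins with other names, 11.1% of the assembly factors, 20% of the translation factors and 20% of the tRNA-charging genes. Of all genes tested, 45.4% were lower and 5.83% were called lower. Of 5 ribosomal proteins with other names, Gadd45gip1, a large-subunit protein, was called at 28.3, 29.95 and 40.01 against 11.98, 18.4 and 16.9 CPM (-1.06 ± 0.23, adjusted p = 0.027). The small-subunit GTP-binding protein Dap3 had a log2 fold change of 0.31 ± 0.23, and those of Chchd1, Aurkaip1 and Ptcd3 were -0.49, -0.13 and -0.11, none of them called. Of 27 assembly and rRNA-modifying factors, 18 were lower and 3 called, the pseudouridine synthase family member Rpusd3 (-1.12 ± 0.18, adjusted p = 0.012), Mettl15 (-0.73) and the rRNA chaperone Eral1 (-0.61). In the same list the groups of Rcc1l (0.50, adjusted p = 0.076) and Trub2 (0.27, adjusted p = 0.23) were apart and higher in Nelfb-/- cells, without a call. All 15 translation factors tested were lower, 3 of them called. These were Oxa1l, the insertase that takes new proteins into the inner membrane (56.3, 52.0 and 49.9 against 33.03, 31.3 and 30.3 CPM, -0.74 ± 0.12, adjusted p = 0.013), the ribosome recycling factor Mrrf (-0.66) and Taco1, an activator of cytochrome oxidase subunit translation (-0.60). Of 20 genes that charge mitochondrial tRNAs, 13 were lower, 7 were higher and Fars2, Iars2, Nars2 and Wars2 were called, between -0.79 and -0.56. No gene of these lists was called higher.

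Of 9 regulators known to act on mitochondrial genes, 1 was called (11.1%, where 5.83% of all genes were called lower). This was the coactivator Ppargc1b (20.2, 19.2 and 23.6 against 9.01, 11.6 and 9.63 CPM, -1.06 ± 0.17, adjusted p = 0.013). Its relative Ppargc1a scattered in both groups, at 16.2, 8.82 and 4.93 against 9.10, 3.26 and 2.98 CPM (-0.99 ± 0.58, adjusted p = 0.29). Nrf1 and Gabpa, factors known to bind promoters of mitochondrial genes, had log2 fold changes of -0.098 ± 0.13 and 0.26 ± 0.17, and neither was called. The other 5 lay between -0.48 for Esrra and 0.36 for Pprc1. Among the 11 factors of mitochondrial DNA transcription and replication, 9 were lower. Of the 11, 0 were called by limma, with 4 at an unadjusted p under 0.05, all of them lower. Of all 16251 genes tested, 2094 were lower at that p, and 5.83% were called lower. Tfam, which packages mitochondrial DNA, stood at 28.7, 27.8 and 30.6 against 21.9, 22.5 and 20.9 CPM (-0.42 ± 0.13, adjusted p = 0.072), and its groups were apart.

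For scale, the 80 cytosolic ribosomal protein genes had 76 lower, 11 called lower and a median log2 fold change of -0.38, and the 85 nuclear genes of oxidative phosphorylation subunits had 85 lower, 34 called lower and a median of -0.75. These calls were 13.75% and 40% of the lists, where 5.83% of all genes were called lower, and no gene of either list was called higher. The median of the mitochondrial ribosomal proteins, -0.25, was thus nearer to 0 than both, and nearer to that of the cytosolic ones. These lists share the same 6 libraries, and the differences between their medians were not tested.

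**Figure D4:**
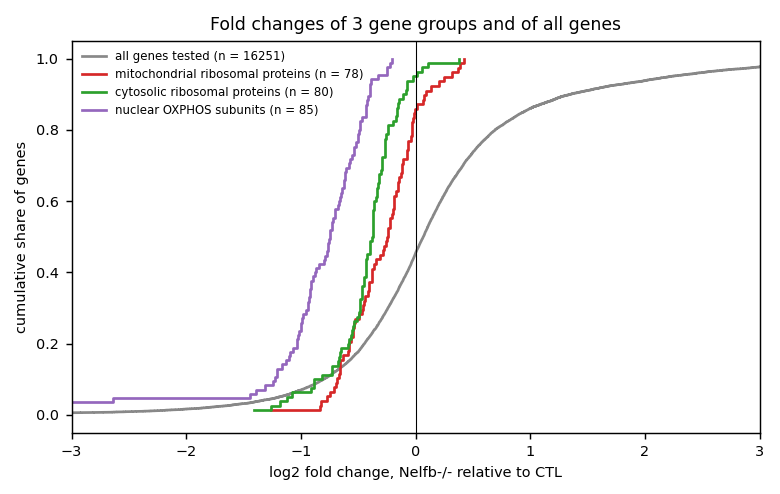
The cumulative share of genes (y axis) at or below each log2 fold change in Nelfb-/- relative to CTL cells (x axis, shown from -3 to 3) for the 78 members, the 80 cytosolic ribosomal protein genes, the 85 nuclear OXPHOS (oxidative phosphorylation) subunit genes and all 16251 genes tested. The median of the members (-0.25) lies between those of all genes (0.068) and of the OXPHOS genes (-0.75), while all genes spread further to both sides than the members (-1.26 to 0.42).

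Transcript length moved with these values. The members' principal transcripts had a median length of 1302 bases (418 to 7300), and the 733 genes under 1000 bases, members included, had a median log2 fold change of -0.18, against 0.026 from 1000 to 2000 bases 0.13 from 2000 to 4000 bases and 0.12 above. The libraries that stood apart also differed most in short transcripts. The log2 level in CTL replicate 3 lay above the mean of the other CTL libraries by a median of 0.32 for genes under 1000 bases, 0.24 for the members and 0.088 for all genes with a length. That of Nelfb-/- replicate 1 lay below the mean of the other Nelfb-/- libraries by medians of -0.24, -0.39 and -0.0011. The members that were lower numbered 22 of 25 under 1000 bases (median -0.44), where 61.9% of all genes were lower. They were 23 of 28 up to 2000 bases (-0.23, against 47.9% of all genes), 15 of 16 up to 4000 (-0.25, against 41.3%) and 7 of 9 above (-0.13, against 40.9%). Called lower, from the shortest bin to the longest, were 3 of 25, 4 of 28, 4 of 16 and 1 of 9 members. The shares of all genes called lower in these bins were 13.2%, 8.07%, 5.47% and 4.30%. The part of transcript length in the members' shift was not tested further.

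Levels of different members were compared per length of the principal transcript. The median was 21.1 CPM per kilobase in CTL and 18.5 in Nelfb-/- cells. Mrps21 (74.3), Mrps6 (66.9) and Mrpl12 (66.3) were the highest in CTL, and Mrps21 and Mrps6 stayed at 71.8 and 72.7 in Nelfb-/- cells while Mrpl12 stood at 42.6. The lowest was Mrpl23, at 2.38 CPM per kilobase, with a mean of 1.36 CPM over the 6 libraries and 13.5 reads in its lowest one. Its processed pseudogene Mrpl23-ps1 had 23.1, 20.9 and 30.7 CPM in CTL libraries, against 17.3, 23.8 and 18.5 CPM in Nelfb-/- cells. Reads of the 2 copies may have been split between them, so the values of Mrpl23 (-0.59 ± 0.40, adjusted p = 0.35) are uncertain. Pseudogenes of Mrpl27, Mrpl48 and Mrps36 were listed at lower levels, up to 11.2 CPM.

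The members were spread over 17 chromosomes, with 11 on chromosome 11 and 0 on the X. Some had a close neighbour on the other strand. For 18 of 78 (23.1%) the start of another protein-coding gene lay head to head within 1 kb, against 8.75% of protein-coding genes. By sign alone, called or not, both genes were lower in 6 of the 18 pairs, the member was lower and its neighbour higher in 10, and the member was higher in 2. Of all genes tested, 45.4% were lower. Mrps34 lies 29 bases from Eme2, a subunit of a DNA endonuclease and the only neighbour that was called, at 1.11 ± 0.18 (adjusted p = 0.013). Mrpl32 starts head to head with the proteasome gene Psma2, whose start lies 75 bases away and whose log2 fold change was 0.033 ± 0.13. Mrpl51 and the condensin gene Ncapd2 are 100 bases apart, and Ncapd2 had 0.53 ± 0.62. A pair made of 2 members, Mrpl46 and Mrps11, overlaps at its 5' ends, with 173 shared exon bases. Mrpl46 stood at 14.7, 12.7 and 18.3 against 10.1, 9.90 and 11.2 CPM (-0.53 ± 0.19, adjusted p = 0.11, groups apart), and Mrps11 at 11.1, 10.2 and 14.5 against 10.2, 17.6 and 15.3 CPM.

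**Figure D5:**
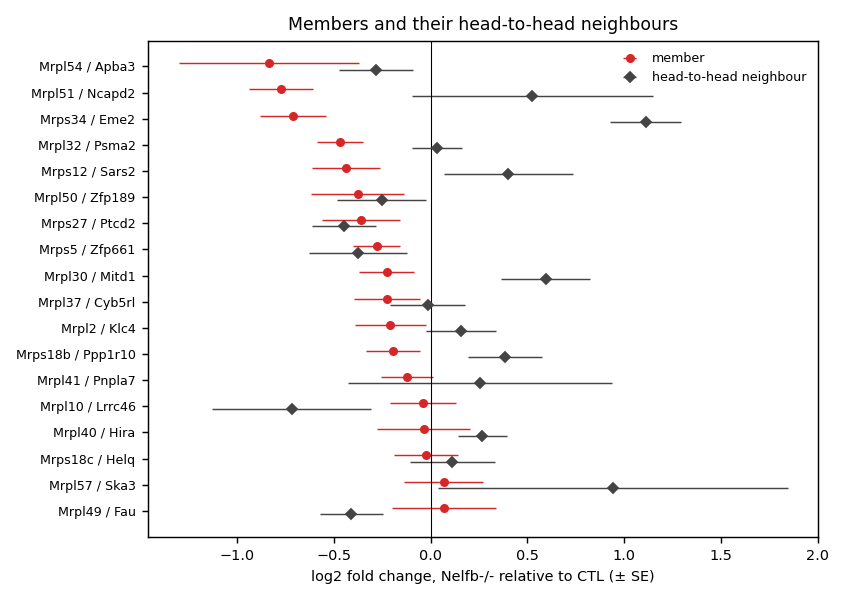
The log2 fold change in Nelfb-/- relative to CTL cells (x axis, with bars for the SE, 3 libraries a group) of 18 members (red circles) and of the gene that starts head to head with each (dark diamonds), ordered by the member. In 10 pairs the member lies left of 0 and its neighbour right of it, and only Eme2 among the neighbours was called.

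Overlaps on the genome may bear on some of these values. The sources used here do not say whether reads were counted by strand, and some overlaps lie on the same strand. In 15 members at least 10% of the exon bases were shared with another listed gene. The largest share was in Mrpl53, not called, 88.0% with Gm42688 on the same strand (-0.18). Among the called ones, Mrps34 shared 63.4% of its exon bases with Mapk8ip3 on the other strand and 37.0% with Nme3 on the same strand. Mrpl24 shared 26.3% with Rrnad1 on the other strand. The log2 fold changes of these partners were -0.69 for Mapk8ip3, -0.58 for Nme3 and -0.42 for Rrnad1, none of them called. Mrps25, among the highest, shared 69.8% with Nr2c2 (-0.32). Their part in the members' values was not tested.

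Promoters of the members held letters of factors known to act on mitochondrial genes more often than those of all genes. RefSeq promoter windows (GRCm38.p6, 250 bases before the start to 50 after) were matched for 69 of the 78 members and searched on both strands. The NRF1 letters GCATGCGC were in 11.6% of the members and 5.64% of all tested genes, the ETS letters CCGGAAG of the GABP family in 37.7% against 18.9%, and the YY1 letters AAGATGG in 18.8% against 8.06%. At least 1 of the 3 was in 38 members (55.1%, against 29.1%). CCAAT (39.1% against 43.0%), GGGCGG of SP factors (49.3% against 66.9%) and the E box CACGTG (7.25% against 11.5%) were not more frequent in the members. No motif's letters contain those of another, while GCATGCGC can overlap its own reverse complement.

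Among the matched members, median fold changes were close with and without the letters. Members with (26) and without (43) the ETS letters had median log2 fold changes of -0.17 and -0.24, with 3 and 5 called. Those with (8) and without (61) the NRF1 letters had -0.17 and -0.24, with 2 and 6 called. For the YY1 letters (13 and 56 members) the medians were -0.22 and -0.23, with 2 and 6 called. Of all genes, 5.83% were called lower. The members without a window could not enter these medians, among them the called Mrps28, Mrps35, Mrps34 and Mrpl4. Mrpl54, with the second lowest fold change, had no window either. A match is a description of the window and not a bound site. The 120 bases before the RefSeq start are shown for 2 called members and for 2 that were not called and hold the same letters, read 5' to 3' on the gene's own strand, with matches in capitals. Mrpl9 and Mrpl33 show the NRF1 letters, which overlap on both strands where 10 capitals run together in Mrpl9, and Mrps18a and Mrps22 show the ETS letters at 26 and 11 bases before the start.
Mrpl9 (chr3:94443216-94443335, plus strand): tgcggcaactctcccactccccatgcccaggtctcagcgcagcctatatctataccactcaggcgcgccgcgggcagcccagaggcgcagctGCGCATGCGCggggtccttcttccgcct
Mrpl33 (chr5:31613831-31613950, plus strand): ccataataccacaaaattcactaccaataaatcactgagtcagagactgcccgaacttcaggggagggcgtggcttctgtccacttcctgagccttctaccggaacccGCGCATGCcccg
Mrps18a (chr17:46110884-46111003, plus strand): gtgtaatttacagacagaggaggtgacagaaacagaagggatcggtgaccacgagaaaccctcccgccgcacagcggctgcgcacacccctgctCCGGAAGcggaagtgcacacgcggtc
Mrps22 (chr9:98601680-98601799, minus strand): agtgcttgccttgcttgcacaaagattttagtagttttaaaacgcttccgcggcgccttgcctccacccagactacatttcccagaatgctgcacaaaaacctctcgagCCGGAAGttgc
With the NRF1 letters, the log2 fold change was -0.69 for Mrpl9 and 0.0091 ± 0.15 for Mrpl33, a large-subunit protein that stood at 28.3, 26.2 and 32.6 CPM in CTL libraries, against 25.7, 31.6 and 30.4 CPM in Nelfb-/- cells. With the ETS letters it was -0.54 for Mrps18a and 0.42 for Mrps22. Mrpl33 was picked for this contrast after its values were seen.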

How the data were processed

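RNA-seq of 3 CTL and 3 Nelfb-/- cultures was analysed. The authors deposited CPM values with an offset of 0.0001, here subtracted. Every listed gene reached 10 reads, to within 0.05, in at least 1 library. The submitters' processing notes name STAR 2.7 and Partek 9.0.20.0202, on mm10. How reads were counted, and by which strand, is not given in the sources used here. Depth was read from the step between low values. Between 73.2% and 76.3% of values up to 20 reads were whole within 0.05 reads, so no count test was run. Values were scaled to a common depth of 22.3 M reads, and the 16251 genes averaging 10 reads or more were tested with limma 3.58.1 (R 4.3.3, abundance trend, log2 of reads plus 1, Benjamini-Hochberg adjustment, two-sided) with no covariates. The fit was tested on simulated data. P-values measure the spread between these cultures.

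Members, the lists of other genes and the markers were chosen with earlier results of these data known. Named were the called members, the 10 lowest and 10 highest fold changes, the 5 highest levels and members with a listed pseudogene, exon overlap or close neighbour, as the results needed them. Mrps21, Tfam and the head-to-head neighbours were named after their values were seen. Transcript lengths and positions came from GENCODE vM21. 18 alternatives and 1 added after seeing the data were fitted.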

Additional observations from a re-analysis of the deposited data

How the results depend on the processing

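The 12 called members kept their direction in all 19 alternatives and lost their call in 74 of 228 refits. The number of members called stayed within 1.5 times of 12 under other pseudocounts, filters and scalings. It was 6 without the abundance trend (5.08% of all genes called lower), 6 without moderation of the variances (0 of them 2-fold, 2.75% of all genes), 6 of 78 with a replicate block (5.54% of all genes) and 39 with array weights (31 lower and 8 higher, 0 of them 2-fold, with 26.0% of all genes called lower and 34.7% higher), and 33 without both libraries that stood apart. The array weights were 0.192 for CTL replicate 3 and 0.202 for Nelfb-/- replicate 1, against 1.54 to 3.93 for the others. With 1 library left out, 0 to 12 members were called and 0 to 1 called at 2-fold. No called member kept its call in all 6 of these fits, and each of them has fewer residual degrees of freedom. The members' median log2 fold change stayed below 0 in all 19 alternatives.

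Same-numbered libraries deviated together in 2 of 3 pairs, with correlations of 0.515, -0.395 and 0.518 over 16251 genes, so the numbers were not taken as pairs, and CTL replicate 2 correlated best with Nelfb-/- replicate 1 (0.48). The replicate block called 2690 genes instead of 2566.

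Some log2 fold changes changed sign. With array weights, Mrpl10 was at 0.12, Mrpl17 at 0.099, Mrps18c at 0.055 and Aurkaip1 at 0.022. Without both libraries that stood apart, 19 members changed from lower to higher, of which Mrps14 (from -0.014 to 0.44, limma adjusted p = 0.011) and Mrpl40 (from -0.036 to 0.34, adjusted p = 0.028) were then called. In the same fit, Mrpl10 was at 0.18, Mrpl17 at 0.16, Mrpl53 at 0.025, Mrps18c at 0.11, Aurkaip1 at 0.077, Ptcd3 at 0.049 and Pprc1, 0.36 with all libraries, at -0.022. Mrpl49 was at -0.0029 with upper-quartile scaling and -0.037 with quantile normalization, and Mrpl57 at -0.0022 with median-of-ratios scaling, -0.0051 with upper-quartile scaling and -0.049 with quantile normalization. With 1 library left out, Mrpl10 ranged from -0.15 to 0.090, Mrpl17 from -0.18 to 0.078, Mrpl36 from -0.024 to 0.32, Mrpl49 from -0.11 to 0.32, Mrpl57 from -0.092 to 0.19, Mrps18c from -0.095 to 0.048, Mrps6 from -0.11 to 0.30 and Gabpb1 from -0.31 to 0.13. The cause of these changes was not tested. With 3 libraries a group, the smallest change called among the members was -0.47.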

Other observations

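Per unit of ribosomal protein mRNA, mitochondrial rRNA was lower in Nelfb-/- cells. The summed CPM of mt-Rnr1 and mt-Rnr2 divided by that of the 78 members was 1.33, 1.63 and 0.619 in CTL replicates 1 to 3 and 0.417, 0.182 and 0.307 in Nelfb-/- replicates 1 to 3, and the groups did not overlap. The summed mRNAs of the mitochondrial genome were also lower, by 60.0% between the group means, against 17.6% for the members. How the library kit treats rRNA bears on this ratio, and its part was not tested.

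Of the listed pseudogenes, Mrpl27-ps stood at 5.92, 4.51 and 7.89 CPM in CTL and at 2.81, 3.83 and 3.49 CPM in Nelfb-/- cells (log2 fold change -0.82 ± 0.28, limma adjusted p = 0.097). Mrps36-ps2 stood at 2.91, 2.72 and 4.15 against 1.63, 2.35 and 1.91 CPM (-0.71 ± 0.29, adjusted p = 0.15). Both had groups apart and lower in Nelfb-/- cells, like Mrpl27 and Mrps36 themselves. Reads of a gene and its pseudogene may have been split between them, as for Mrpl23, so this likeness is uncertain. The groups of the other pseudogene of Mrps36, Mrps36-ps1 (-0.24 ± 0.35, adjusted p = 0.67), and of Mrpl48-ps (0.20 ± 0.27, adjusted p = 0.64) overlapped.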
